A study of Rattus norvegicus with 12 samples.

Results

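The genes described here encode the lysosome's own machinery in rat oligodendrocyte precursor cells (OPCs), compared by bulk RNA-seq between cells kept at low oxygen and cells kept in room air. The list names 38 genes by symbol, picked for the role of their product and not by a threshold on these data: 16 subunits and accessory proteins of the vacuolar proton pump (V-ATPase), 13 hydrolases, 6 proteins of the lysosomal membrane and 3 lumenal proteins that are not enzymes. Its members were chosen with earlier results of these data known. Of the 38, 37 had a row among the 30562 genes of the count table, each under 1 row only, and all 37 passed the filter on low counts. Atp6v1f, the F subunit of the pump, had no row under that symbol and was not analysed here.

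The lysosome is the acidic compartment in which a cell breaks down proteins, lipids and sugar chains brought in by endocytosis and autophagy. The V-ATPase makes it acidic: the V1 domain in the cytosol splits ATP and turns a central rotor, and the V0 domain in the membrane carries protons inward as that rotor spins. Hydrolases that work only in acid then digest the cargo, membrane proteins protect the wall and move products out, and small lumenal proteins assist the enzymes. In the oligodendrocyte lineage lysosomes are best known for turning over myelin lipids, and inherited loss of galactosylceramidase (Galc) or arylsulfatase A (Arsa) damages white matter.

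The cultures were primary wild-type (WT) OPCs from the cerebral cortex of newborn Sprague-Dawley rats, grown with FGF-2, PDGF-AA and B27 after microglia and astrocytes had been depleted by shaking and plating. The OPC-5per group held 6 libraries from cells at an inspired oxygen fraction (FiO2) of 5%, and the OPC-Con group 6 libraries from cells in room air. The labels give an exposure of 6 hours, whereas the study's methods give 6 days for this oxygen level, and the study counts 3 biological replicates per group where 6 libraries were deposited. Nothing in the labels ties libraries to cultures, so p-values measure the spread between these libraries, which may partly be technical. In bulk samples fewer cells of a type and less RNA per cell cannot be told apart.

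Total counts ran from 4111669 to 9022324 per library in OPC-5per and from 1356079 to 2797513 in OPC-Con, without overlap, so depth and oxygen cannot be told apart by design. Levels are CPM, counts divided by the size of the library, after TMM scaling, a factor per library that sets most genes equal on average, and they are not corrected for gene length, so they are compared between groups and not between genes. Those factors lay between 1.08 and 1.23 in OPC-5per and between 0.809 and 0.945 in OPC-Con. A gene was called when edgeR's quasi-likelihood test gave an adjusted p under 0.05 over the 8938 genes tested. All log2 fold changes are OPC-5per relative to OPC-Con, with the standard error (SE) that the test implies.

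Of the 37 genes tested, 5 were higher and 10 lower in OPC-5per, against 7.00% of all genes higher and 17.0% lower. The lower calls fell mainly in the V-ATPase (8 of 15), and the higher calls all lay outside it, among hydrolases (2 of 13), membrane proteins (2 of 6) and lumenal non-enzymes (1 of 3). The median log2 fold change was -0.03 over the 37 genes and -0.00 over all genes tested. It was -0.27 for the V-ATPase and 0.02 for the other 22 genes; with library size as the only scaling the V-ATPase median was 0.17 and that of all genes 0.43. The difference between these blocks was not tested, and the members were chosen with earlier results of these data known. No gene changed by more than 1 on the log2 scale, the extremes being -0.80 (Atp6v0b) and 0.46 (Lipa). The OPC-5per libraries all lay above the OPC-Con libraries for 1 gene (Lipa; 2.94% of all genes) and all below them for 3 (Atp6v0e1, Atp6v1e1 and Npc2; 5.40% of all genes).

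**Figure D1:**
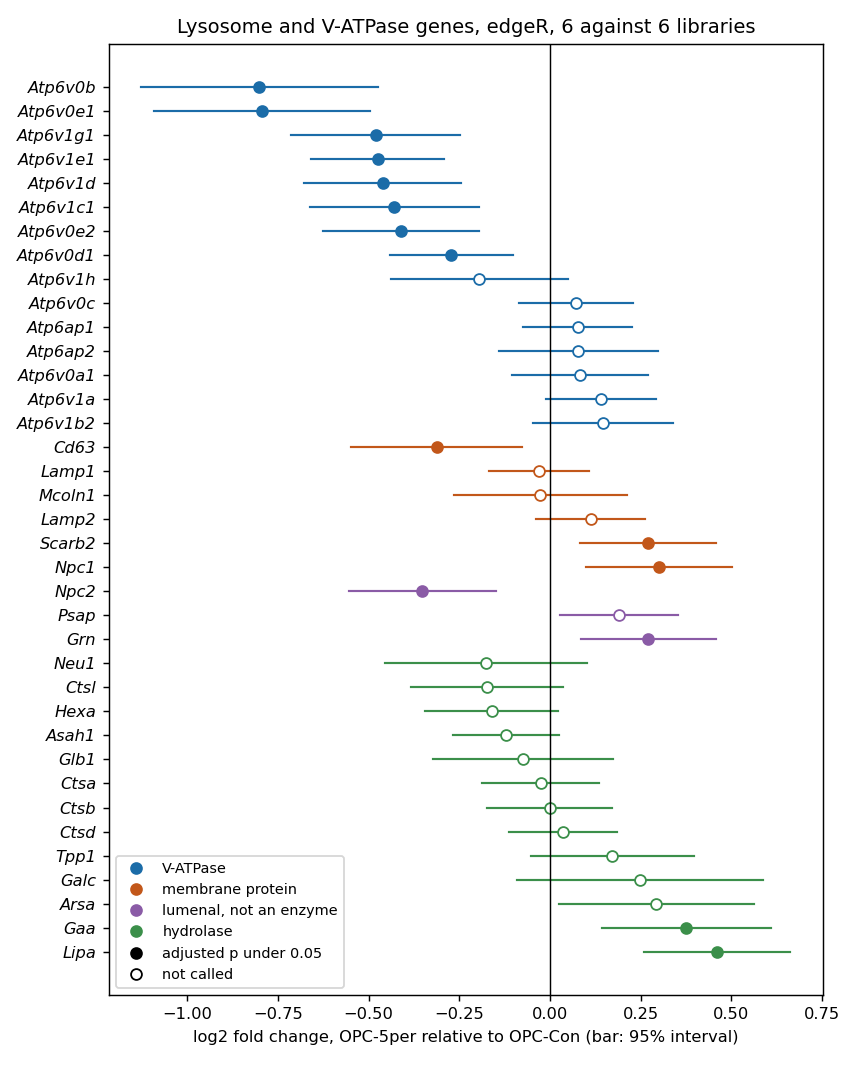
Log2 fold change, OPC-5per relative to OPC-Con, of the 37 lysosome and V-ATPase genes tested, with 95% intervals; colours mark the blocks and filled points are called at an adjusted p under 0.05. The 8 filled V-ATPase points run from -0.80 to -0.27 and no V-ATPase gene is called higher, whereas both filled hydrolases, Gaa and Lipa, lie to the right of 0. These directions are those under TMM scaling. With library size only Atp6v0d1 stood at 0.17, Atp6v0e2 at 0.028 and Atp6v1c1 at 0.010, beside a median of all genes of 0.43.

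Within the V0 domain, 4 of 6 subunits were lower: Atp6v0b, Atp6v0e1, Atp6v0e2 and Atp6v0d1. Atp6v0b (ENSRNOG00000019655) encodes the c'' proteolipid of the membrane ring that carries the protons. Its lowest, median and highest CPM were 51.8, 65.9 and 79.6 in OPC-5per and 78.0, 113 and 158 in OPC-Con. Its log2 fold change was -0.80 (SE 0.16, n = 6 against 6, adjusted p = 0.00110 by edgeR). The groups overlapped in a narrow zone, since OPC-Con replicates 1 and 2 lay close to the top of OPC-5per while replicates 3 to 6 lay clearly above it.

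Atp6v0e1 (ENSRNOG00000003269) encodes a small e subunit of the same domain, and it had the lowest p of the 37 genes. It measured 24.6, 26.9 and 35.0 CPM (lowest, median, highest) in OPC-5per and 36.3, 51.0 and 67.2 CPM in OPC-Con. The log2 fold change was -0.79 (SE 0.14, edgeR adjusted p = 0.000583), which is 0.577 times the OPC-Con level, and no library of one group reached the other. The second e subunit, Atp6v0e2 (ENSRNOG00000008218), ranged from 124 to 167 CPM (median 141) in OPC-5per and from 158 to 237 CPM (median 178) in OPC-Con, overlapping slightly, with a log2 fold change of -0.41 (SE 0.10, edgeR adjusted p = 0.00712). Atp6v0d1 (ENSRNOG00000017235), the d subunit that couples the ring to the rotor, ranged from 211 to 243 CPM (median 226) in OPC-5per and from 243 to 311 CPM (median 270) in OPC-Con. Its groups overlapped only at their edges, and its log2 fold change of -0.27 (SE 0.08, edgeR adjusted p = 0.0190) was the smallest of the called V-ATPase genes.

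The remaining V0 subunits were not called. Atp6v0c, the c proteolipid that makes up most of the ring, lay between 399 and 480 CPM in OPC-5per and between 365 and 455 CPM in OPC-Con (log2 fold change 0.07, 95% interval -0.09 to 0.23). Atp6v0a1, the a subunit that forms the proton path beside the ring, overlapped likewise (0.08, interval -0.10 to 0.27). Both Atp6v0b and Atp6v0c belong to 1 ring, and the difference between the genes was not tested.

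In the V1 domain 4 of 7 subunits were lower: Atp6v1e1, Atp6v1g1, Atp6v1d and Atp6v1c1. Each belongs to a stalk or to the rotor, a grouping made after the values were seen and not tested. Atp6v1e1 (ENSRNOG00000011905), the E subunit of the outer stalks, measured 98.1, 109 and 116 CPM (lowest, median, highest) in OPC-5per and 128, 152 and 180 CPM in OPC-Con. All OPC-5per libraries lay below all OPC-Con libraries, with a log2 fold change of -0.48 (SE 0.09, edgeR adjusted p = 0.000753). Atp6v1g1 (ENSRNOG00000063197) encodes the G subunit that pairs with E in those stalks. It measured 125, 139 and 161 CPM in OPC-5per and 141, 208 and 238 CPM in OPC-Con, a log2 fold change of -0.48 (SE 0.11, edgeR adjusted p = 0.00416), and OPC-Con replicates 1 and 2 again lay next to the OPC-5per values.

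Atp6v1d (ENSRNOG00000009080), the D subunit of the central rotor, measured 95.7, 105 and 127 CPM in OPC-5per and 122, 152 and 172 CPM in OPC-Con. The overlap came from OPC-5per replicate 6, the highest of its group, and the log2 fold change was -0.46 (SE 0.10, edgeR adjusted p = 0.00316). Atp6v1c1 (ENSRNOG00000004846), the C subunit at which V1 and V0 come apart and rejoin, ranged from 38.4 to 47.8 CPM (median 43.6) in OPC-5per and from 45.5 to 71.7 CPM (median 62.7) in OPC-Con (-0.43, SE 0.11, edgeR adjusted p = 0.00887), with a small overlap.

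The A and B subunits of the head of V1, where ATP is split, were not called. Their difference from the stalk and rotor genes was not tested. Atp6v1a, the catalytic A subunit, lay between 176 and 186 CPM in OPC-5per and between 152 and 190 CPM in OPC-Con, a log2 fold change of 0.14 (95% interval -0.01 to 0.29, edgeR adjusted p = 0.167). Atp6v1b2, the B subunit beside it, gave 0.14 (interval -0.05 to 0.34), and Atp6v1h, a regulator of the motor, gave -0.19 (interval -0.44 to 0.05). The accessory proteins Atp6ap1, which helps assemble the pump, and Atp6ap2, also known as the prorenin receptor, each gave 0.08, with intervals of -0.07 to 0.23 and -0.14 to 0.30. None of the 15 V-ATPase genes was called higher by edgeR in the reported fit, and 0 had an unadjusted p under 0.05 in that direction. Limma-voom called 0, while DESeq2 called Atp6v1a (0.15, DESeq2 adjusted p = 0.0411).

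**Figure D2:**
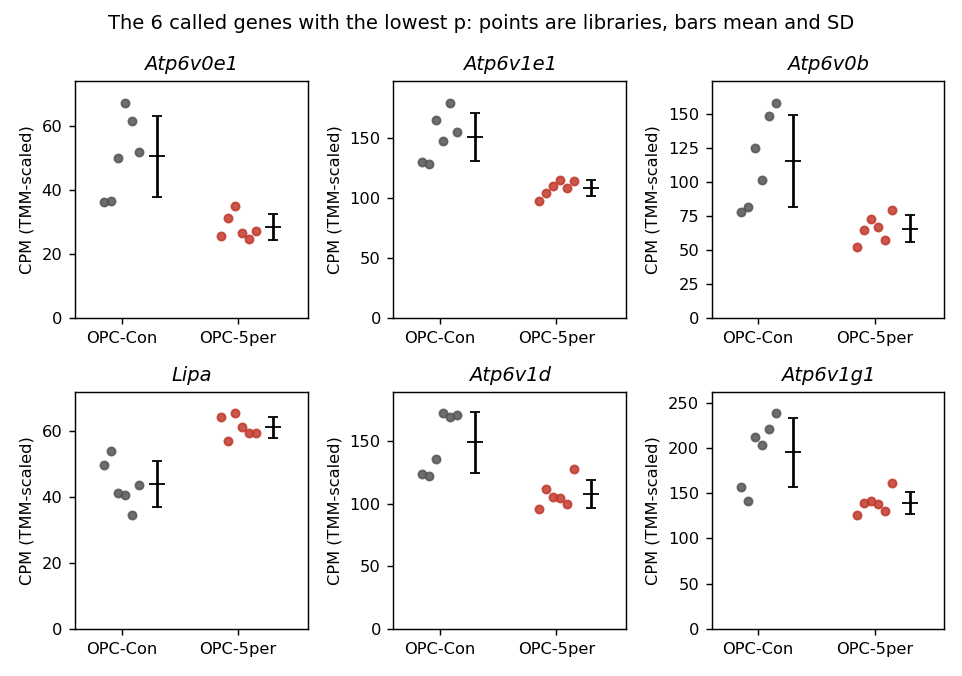
CPM after TMM scaling of the 6 called lysosome genes with the lowest p; each point is a library, placed in order of its replicate number, and the bars give the mean and SD of 6 libraries. For Atp6v0e1 and Atp6v1e1 every red OPC-5per point lies under every grey OPC-Con point and for Lipa every red point lies above, while for Atp6v0b, Atp6v1d and Atp6v1g1 the ranges meet.

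Since all subunits share the same library, the make-up of the pump's transcripts can be read without any scaling factor. The 8 lower subunits together took 42.7% to 47.5% (median 46.1%) of all V-ATPase counts in OPC-5per libraries and 48.3% to 59.1% (median 56.9%) in OPC-Con libraries, without overlap. Those 8 were picked by the same comparison, so this share describes the shift and gives it no further support. Taken singly, Atp6v0e1 and Atp6v1e1 took a smaller share in every OPC-5per library than in any OPC-Con library, Atp6v1a a larger one, and the shares of the other 12 overlapped. A share within a set shows unequal change of its parts and not which part moved.

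The libraries of a group were not alike in these genes. Relative to the mean of each gene over the 12 libraries, the median V-ATPase gene of an OPC-5per library lay between -0.24 and -0.00 on the log2 scale. In OPC-Con it lay at -0.00 and -0.03 in replicates 1 and 2, and at 0.07, 0.13, 0.37 and 0.17 in replicates 3 to 6. The 2 OPC-Con libraries nearest to OPC-5per thus overlapped with OPC-5per replicate 6, and OPC-Con replicate 5 was the highest. In OPC-Con, replicates 1 and 2 also had the most counts (2797513 and 2295080), and replicates 4 to 6 the fewest (1356079, 1664627 and 1561455). OPC-5per replicate 1, the deepest of all (9022324), had the lowest median (-0.24). OPC-5per replicate 6 (4718242) had the highest of its group, whose shallowest library was replicate 4 (4111669). The relation of these medians to depth within a group was not tested. The corresponding medians of the hydrolases spanned -0.10 to 0.05 in OPC-5per and -0.13 to 0.10 in OPC-Con, so that the OPC-Con range held the whole OPC-5per range.

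**Figure D3:**
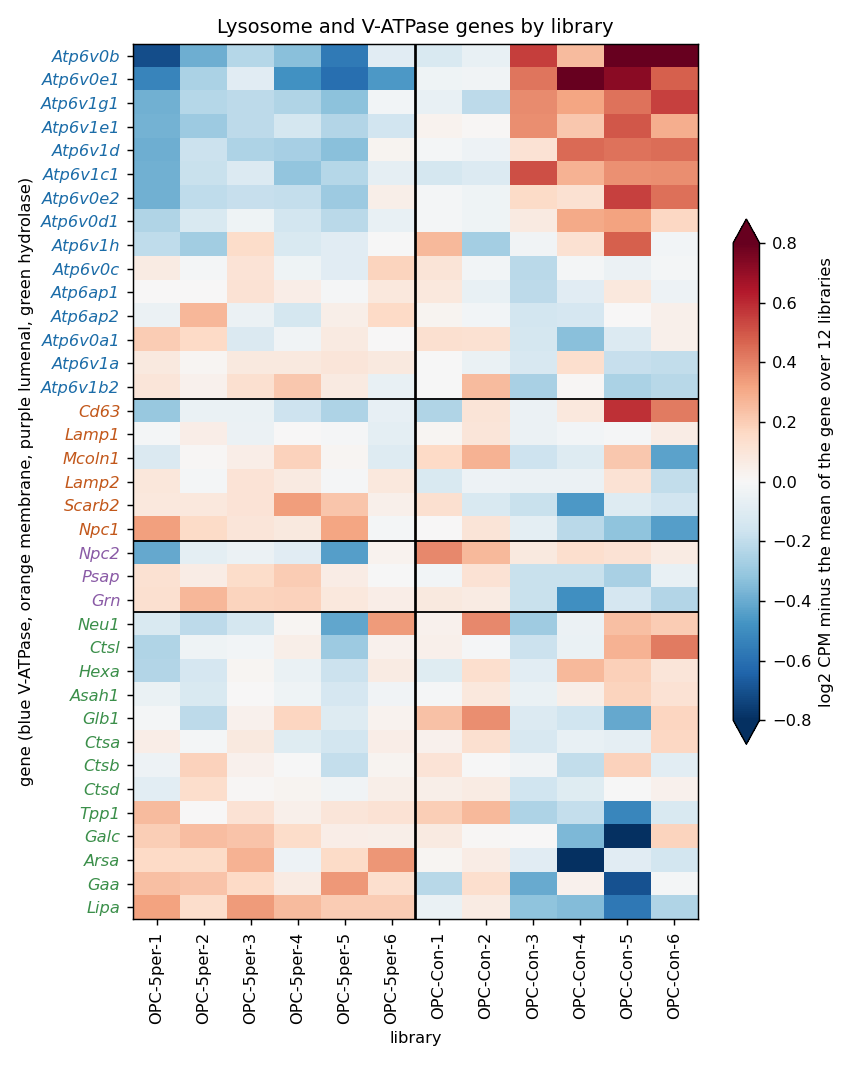
Heat map of the 37 genes (rows, coloured by block) over the 12 libraries (columns), as log2 CPM minus the gene's mean over all libraries; red is above and blue below that mean, and values past 0.8 take the end colours. The upper 8 V-ATPase genes are blue in most OPC-5per libraries, pale in OPC-Con replicates 1 and 2 and red in OPC-Con replicates 3 to 6, under TMM scaling; most hydrolases show no such split.

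Among the 13 hydrolases only Lipa and Gaa were called, both higher. Lipa (ENSRNOG00000019077), the acid lipase that frees cholesterol and fatty acids from cholesteryl esters and triglycerides, measured 56.8, 60.3 and 65.3 CPM (lowest, median, highest) in OPC-5per. In OPC-Con it measured 34.7, 42.3 and 53.9 CPM, so that all OPC-5per libraries were above all OPC-Con libraries. Its log2 fold change was 0.46 (SE 0.10, edgeR adjusted p = 0.00204), or 1.38 times the OPC-Con level. Gaa (ENSRNOG00000047656), the acid alpha-glucosidase that degrades glycogen, ranged from 50.8 to 61.9 CPM (median 55.6) against 30.0 to 53.3 CPM (median 44.9) and overlapped, with a log2 fold change of 0.38 (SE 0.11, edgeR adjusted p = 0.0190).

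The other 11 hydrolases had log2 fold changes from -0.18 to 0.29 and were not called. They include the proteases Ctsb (-0.00), Ctsd (0.03), Ctsl (-0.17), Ctsa (-0.03) and Tpp1 (0.17), and the glycosidases Hexa (-0.16), Glb1 (-0.07) and Neu1 (-0.18), which trim sugars from glycolipids and glycoproteins. Asah1, acid ceramidase, gave -0.12 (interval -0.27 to 0.02). The enzymes of myelin lipids were among the highest values of this group: Arsa, which removes sulfate from sulfatide, gave 0.29 (interval 0.02 to 0.56, edgeR adjusted p = 0.105), and Galc, which splits galactosylceramide, 0.25 (interval -0.09 to 0.59, edgeR adjusted p = 0.289). Galc had the fewest counts of the 37 genes, down to 8 in a library, so that changes smaller than its interval were not detectable at this depth. No hydrolase was called lower by edgeR in the reported fit, by limma-voom or by DESeq2, and 0 had an unadjusted edgeR p under 0.05 in that direction. The median of the 13 was -0.00, equal to that of all genes.

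Of the partners of cholesterol export, Npc1 was called higher and Npc2 lower. Npc1 (ENSRNOG00000012016), the membrane protein that passes cholesterol out of the lysosome, ranged from 96.2 to 122 CPM (median 106) in OPC-5per and from 71.8 to 105 CPM (median 88.0) in OPC-Con, overlapping, with a log2 fold change of 0.30 (SE 0.10, edgeR adjusted p = 0.0282). Npc2 (ENSRNOG00000012062), the lumenal carrier that hands cholesterol to Npc1, ranged from 61.2 to 84.6 CPM (median 78.4) in OPC-5per and from 87.0 to 109 CPM (median 90.5) in OPC-Con. All its OPC-5per libraries were below all OPC-Con libraries, with a log2 fold change of -0.35 (SE 0.10, edgeR adjusted p = 0.0126). The fold changes of this pair were not tested against each other, and with library size only Npc2 stood at 0.08 (Npc1 at 0.74), where the median of all genes was 0.43.

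Of the other membrane proteins, Scarb2 was higher and Cd63 lower. Scarb2 (ENSRNOG00000002225), the carrier that brings beta-glucocerebrosidase to the lysosome, ranged from 90.0 to 110 CPM (median 93.4) in OPC-5per and from 63.5 to 95.6 CPM (median 79.5) in OPC-Con, with overlap (0.27, SE 0.09, edgeR adjusted p = 0.0342). Cd63 (ENSRNOG00000007650), a tetraspanin of late endosomes and exosomes, ranged from 113 to 134 CPM (median 129) in OPC-5per and from 118 to 209 CPM (median 148) in OPC-Con. OPC-Con replicate 1 lay inside the OPC-5per range and the other 5 above it, replicates 5 and 6 farthest. Its log2 fold change was -0.31 (SE 0.11, edgeR adjusted p = 0.0489), a call that was not given by DESeq2 (adjusted p = 0.0561) or by limma-voom (adjusted p = 0.0677) and was kept in 2 of the 12 fits without 1 library, against 6 of 12 for Scarb2. The abundant coat proteins Lamp1 (-0.03, interval -0.17 to 0.11) and Lamp2 (0.11, interval -0.04 to 0.26) and the calcium channel Mcoln1 (-0.03, interval -0.27 to 0.21) were not called.

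The lumenal non-enzymes other than Npc2 were Grn and Psap. Grn (ENSRNOG00000021031) encodes progranulin, the precursor of the granulins. It ranged from 94.0 to 109 CPM (median 101) in OPC-5per and from 64.4 to 95.6 CPM (median 81.4) in OPC-Con, and only the edges overlapped (0.27, SE 0.09, edgeR adjusted p = 0.0328). Grn was called in 7 of the 12 fits without 1 library. Psap, the precursor of the saposins that present sphingolipids to their hydrolases, gave 0.19 (interval 0.03 to 0.35); its adjusted p was 0.0809 by edgeR, 0.0481 by limma-voom and 0.0191 by DESeq2.

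Other genes of the same pathways were read from lists written from general knowledge of the lysosome. Of 9 tested genes for other V-ATPase isoforms and assembly factors, 2 were lower, the assembly factors Tmem199 (-0.59, SE 0.16) and Ccdc115 (-0.54, SE 0.15), and 0 higher (0 at an unadjusted p under 0.05, and 0 by limma-voom or DESeq2); the 22.2% lower stood beside 17.0% of all genes, and the median was -0.19. Of 25 other hydrolases and cofactors, 3 were higher (12%, against 7.00% of all genes), among them Gm2a (0.28, SE 0.09), the cofactor of ganglioside breakdown, and Ctss (0.55, SE 0.19), a protease abundant in microglia. None of these 25 was called lower by edgeR, limma-voom or DESeq2, and 0 had an unadjusted p under 0.05 in that direction. Of 19 other membrane proteins, 3 were higher (15.8%), including the lipid transporter Abca2 (0.36, SE 0.09) and the nucleoside transporter Slc29a3 (0.53, SE 0.12), and 2 were lower (10.5%), Laptm4a (-0.52, SE 0.12) and Tmem192 (-0.64, SE 0.17). Mannose 6-phosphate sorting, which delivers enzymes to the lysosome, had 1 higher gene of 11, Sort1 (0.35, SE 0.11), and 1 lower, Ap1s1 (-0.30, SE 0.10), each 9.09%. With so few genes in a list, 1 gene more or less moves a share by several points, and the shares were not tested against those of all genes.

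The lists for nutrient sensing and TFEB control and for lysosome positioning and fusion held further lower calls. Of 17 tested genes of nutrient sensing and of the control of TFEB, a transcription factor for lysosomal genes, 7 were lower (41.2%, against 17.0% of all genes) and the median was -0.28. The lowest p values were those of Lamtor4 (-0.92, SE 0.14, edgeR adjusted p = 0.000234), a subunit of the Ragulator scaffold, and of Rheb (-0.67, SE 0.12, edgeR adjusted p = 0.000632), the GTPase that switches on mTORC1. All 5 Ragulator genes, Lamtor1 to Lamtor5, were among the 7, from -0.999 (Lamtor5) to -0.43 (Lamtor3), an observation made after their values were seen. In this list edgeR called 0 genes higher, with 2 at an unadjusted p under 0.05, limma-voom called 0 and DESeq2 called 1. Of 22 genes of lysosome positioning and fusion, 7 were lower (31.8%), led by Bloc1s1 (-0.91, SE 0.18) and Snapin (-0.54, SE 0.11), both subunits shared with the complex that moves lysosomes along microtubules, and 1 was higher, Vps39 (0.30, SE 0.10), a tethering subunit. In replicates 1 to 3 alone, 4 genes of nutrient sensing and 5 of positioning were lower at an unadjusted edgeR p under 0.05. With log2 total count as a covariate, which the design ties to oxygen, 0 of either list reached that level. Over all 140 lysosome genes tested, those of the first list included, 13 were higher (9.29%) and 29 lower (20.7%), close to the 7.00% and 17.0% of all genes, with a median of -0.01.

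Markers of other cell types moved with the comparison in part. Of all genes tested, 7.00% were higher and 17.0% lower. Of 15 microglia markers, 10 were tested, of which 4 were higher (Csf1r, Cd68, C1qb and Ctss, 40%) and 1 lower (Tyrobp, 10%). The 15 summed to between 137 and 223 CPM in OPC-5per and between 116 and 197 CPM in OPC-Con. Cd68 and Ctss are also lysosomal genes of the lists above. Of 8 tested oligodendrocyte markers 5 were higher (62.5%). The sum of all 8, 12938 to 14290 CPM in OPC-5per, lay above the 8796 to 12754 CPM of OPC-Con without overlap. Mbp, the largest part of that sum, was not called (edgeR adjusted p = 0.0555). It ranged from 6633 to 7820 CPM in OPC-5per and from 4504 to 7040 CPM in OPC-Con. OPC markers summed to between 3726 and 4326 CPM in OPC-5per and between 3083 and 3827 CPM in OPC-Con. Of 7 tested, 1 was higher, Gpr17, which had the highest mean of the 7 in both groups. Pdgfra and Cspg4 averaged 236 and 71.5 CPM in OPC-5per and 229 and 63.0 CPM in OPC-Con, and were not called. The 10 astrocyte markers summed to between 859 and 1005 CPM against 814 to 918 CPM (2 of 8 tested higher, 1 lower). The 9 neuron markers summed to between 263 and 294 CPM against 169 to 226 CPM, without overlap (1 of 5 tested higher). The called gene, Tubb3, averaged 98.9 CPM in OPC-5per and 59.4 CPM in OPC-Con, and Map2, not called, 134 and 113 CPM. Snap25 (6.52 and 6.09 CPM) and Rbfox3 (2.67 and 3.36 CPM) did not pass the filter. Of the 9 mesenchymal and endothelial markers with a row, 0 passed the filter, their sum was at most 2.87 CPM, and Lum and Cdh5 had no count. The part of these cell types in the lysosomal genes was not tested.

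Gene span, the genomic length from first to last base in RefSeq, moved with the fold change over all genes. Across the 8544 tested genes with a span the correlation of log2 fold change with log2 span was r = 0.325 (rho = 0.301), and 43.7% of the shortest 10% of genes were lower against 6.78% of the longest 10%. Over the 15 V-ATPase genes r was 0.381 (rho = 0.532) and over the other 22 genes 0.152 (rho = 0.152); genes within a library share its depth and are not independent. The median V-ATPase span of 23073 bp was close to the 25568.5 bp of all genes tested, but Atp6v0b (1517 bp) and Atp6v0e2 (3149 bp) were among the shortest 10%. With the trend on span removed from each library, 7 V-ATPase genes stayed lower and the block's median was -0.31. Atp6v0b then stood at -0.38 (edgeR adjusted p = 0.00778) instead of -0.80, and Atp6v0e2 was no longer called (-0.15, edgeR adjusted p = 0.116). Among the higher genes, Npc1 (0.19, edgeR adjusted p = 0.0917) and Scarb2 (0.15, edgeR adjusted p = 0.207) lost their calls in that fit. The same fit called Arsa (0.50) and Atp6ap1 (0.20) higher and Asah1 (-0.20) lower. The further lists were not matched for span. Other V-ATPase isoforms and assembly factors had a median span of 9302 bp, and 25.4% of all genes from 8498 to 12850 bp were lower. Nutrient sensing had 19418 bp and positioning and fusion 23345.5 bp, and 12.4% of all genes from 18400 to 25563 bp were lower.

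**Figure D4:**
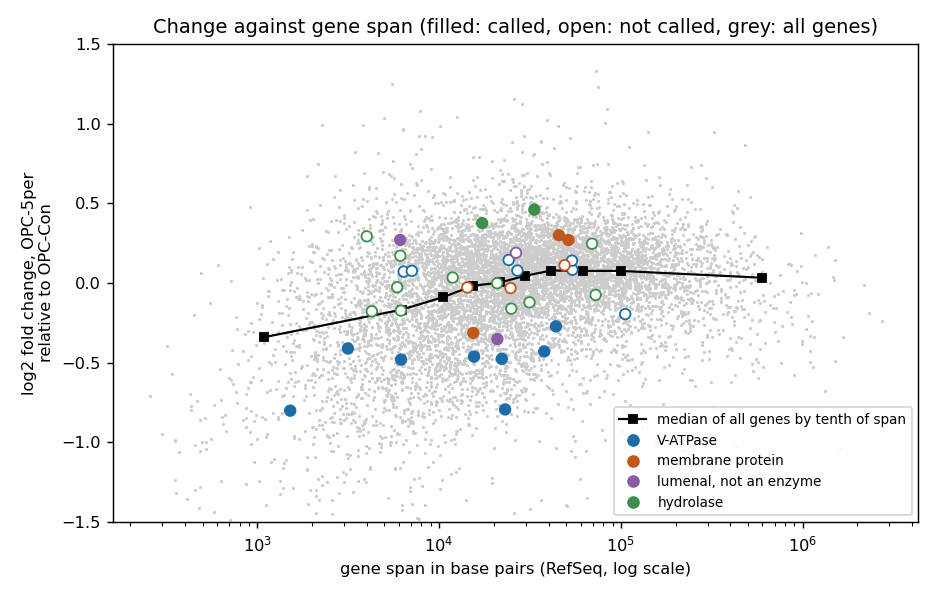
Log2 fold change (y axis, cut at 1.5 on either side, so that a few grey points fall outside) against gene span in base pairs on a log scale, for all tested genes with a span (grey) and the 37 lysosome genes by block, under TMM scaling. The black line, the median of all genes in 10 groups of equal size by span, rises from -0.34 to 0.08, and the 8 filled V-ATPase points lie below it.

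How the scaling was done set the sign of small changes. With library size as the only scaling, the median of all genes rose to 0.43, 24 lysosome genes were called higher and 2 lower (Atp6v0b and Atp6v0e1), and the split of all genes turned to 5515 higher and 405 lower. A scaling factor moves all genes of a library alike, so the distance of each block from that median (V-ATPase median 0.17, hydrolase median 0.43) could hardly change and is no sign of stability. In replicates 1 to 3 alone 0 of the 37 genes were called by edgeR, although 9 had an unadjusted p under 0.05, and all 8 lower V-ATPase genes were negative (-0.56 to -0.12); in replicates 4 to 6 alone all 8 were called (-1.19 to -0.40). With log2 total count as a covariate, which the design ties to oxygen, edgeR called 0 of the 37, 0 had an unadjusted p under 0.05, and 4 of the 8 were negative.

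**Figure D5:**
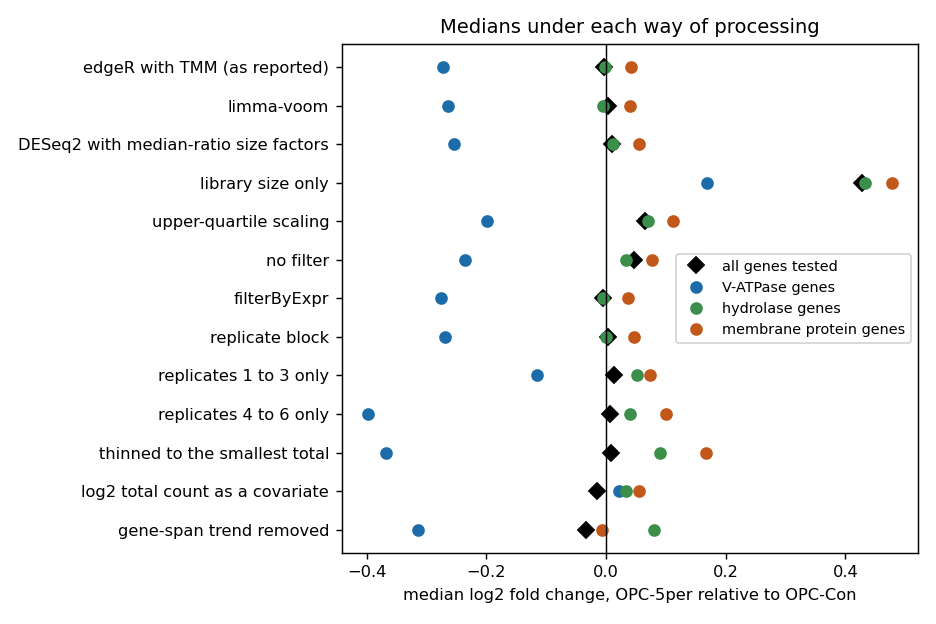
Median log2 fold change, OPC-5per relative to OPC-Con, of all tested genes (black), the V-ATPase genes (blue), hydrolases (green) and membrane proteins (orange) under each way of processing. The blue point lies left of the black one in every row but that with log2 total count as a covariate, and with library size only all 4 points are right of 0.

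Lysosomal genes often carry a CLEAR element in the promoter, the E-box-like site that TFEB and its relatives bind, and the core of the hypoxia-responsive element is contained in the same letters. RefSeq promoters (GRCr8, 250 bases before to 50 after the start) were given for 28 of the 37 genes and 7076 of the genes tested. On either strand, TCACGTGA was in 6 of the 28 (21.4%, against 2.04% of the promoters of genes tested), CACGTG, which it contains, in 9 (32.1% against 10.2%), and ACGTG, contained in both, in 15 (53.6% against 26.9%). The 8-letter core was in 2 of 11 V-ATPase promoters (Atp6v0d1 and Atp6v0e1), 2 of 6 of membrane proteins and 2 of 9 of hydrolases. By call, among the 28 genes with a promoter, it was in 2 of 8 that were lower, 0 of 5 that were higher and 4 of 15 that were not called. Its presence is therefore given as a description of the promoters and not of the change. The windows below show it in a called V-ATPase gene and in uncalled genes, with the E-box of Gaa and Cd63 for comparison. The copies in Atp6v0e1, Mcoln1 and Ctsd are not shown. Each window is read 5′ to 3′ on the strand of the gene, and capitals mark the match.
Atp6v0d1, chr19:50357282-50357313, minus strand: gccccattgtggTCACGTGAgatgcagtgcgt
Lamp1, chr16:83075110-83075141, minus strand: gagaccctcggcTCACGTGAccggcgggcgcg
Lamp1, chr16:83075083-83075114, minus strand: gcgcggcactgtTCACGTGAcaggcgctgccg
Galc, chr6:123245561-123245592, minus strand: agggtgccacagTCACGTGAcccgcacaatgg
Gaa, chr10:105028276-105028305, plus strand: ccgcccacaaacCACGTGacccacgctgcc
Cd63, chr7:1921942-1921971, plus strand: ccgggcagcggcCACGTGgcctgtccaggc

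Lamp1 held 2 copies of the core in its window and was not called (-0.03), Atp6v0d1 held 1 and was lower, and Lipa and Npc1, both higher, held 0.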

How the data were processed

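The authors prepared strand-specific libraries, trimmed reads with Trimmomatic 0.36, used STAR 2.7.9a for alignment to mRatBN7.2 and RSEM 1.3.3 for quantification (versions from the submitters' processing notes). The deposited counts are whole numbers by Ensembl gene and were not normalized, and 0 columns were left unused. RSEM divides reads that match several near-identical genes, so the counts of such genes are uncertain to that extent. The filter kept genes over 10 CPM in 1 library or more, TMM scaling followed, and edgeR 4.0.16 in R 4.3.3 (glmQLFit, glmQLFTest, condition as the only term) was run over all 8938 genes, with Benjamini-Hochberg adjustment. The fit was tested on simulated counts with known changes. Within a group, no library pair agreed within counting noise (chi-square per degree of freedom at least 3.22). Alternatives used limma 3.58.1 (voom), DESeq2 1.42.0, other scalings and filters, the replicate number as a block, subsets of libraries, thinned counts, log2 total count as a covariate and removal of a lowess trend on gene span (RefSeq GRCr8, matched by symbol). Figures used matplotlib 3.10.9.

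The members, the further lists and the tests were chosen with earlier results of these data known. Full values are given for every called member, per library in the plot for the 6 with the lowest p, and from each further list for the 2 called genes with the lowest p in each direction; the V-ATPase shares were added after the values were seen.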

Additional observations from a re-analysis of the deposited data

Results flagged for a closer look

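Of 74 groups of 6 libraries (37 genes in 2 conditions), 2 held a library whose gap to the rest was more than 0.625 of the group's range, where chance gives about 1 in 20 groups. Atp6v1a in OPC-5per replicate 2 was at 176 CPM, below the 183 to 186 CPM of the other 5 libraries. Arsa in OPC-Con replicate 4 was at 10.1 CPM, below the 16.0 to 18.5 CPM of the other 5. Neither gene was called.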

How the results depend on the processing

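The limits of these results are set by depth, which did not overlap between groups, by gene span and by which libraries enter. Of the 8 V-ATPase genes called lower, 7 were called in all 12 fits that each left out 1 library; Atp6v0d1 was lost without OPC-5per replicate 1, 2, 4 or 5. Lipa was also called in all 12. Gaa was lost without OPC-Con replicate 3, Npc2 without OPC-5per replicate 1 or 5, Npc1 without OPC-Con replicate 4, 5 or 6, Grn without OPC-5per replicate 2 or OPC-Con replicate 3, 4, 5 or 6, Scarb2 without OPC-5per replicate 4 or 5 or OPC-Con replicate 3, 4, 5 or 6, and Cd63 in all fits but 2; Psap was gained without OPC-5per replicate 6 or OPC-Con replicate 2. The highest adjusted p of these edgeR fits was 0.0801 for Atp6v0d1, 0.0525 for Gaa, 0.0626 for Npc2, 0.0710 for Npc1, 0.0731 for Grn, 0.0776 for Scarb2 and 0.142 for Cd63. Counts over these fits were 2 to 6 higher and 7 to 10 lower over the 37 genes, 7 to 8 lower V-ATPase genes, 1 to 2 higher hydrolases, 0 to 2 higher and 0 to 1 lower membrane proteins, and 0 to 2 higher and 0 to 1 lower lumenal non-enzymes; over all genes they were 436 to 823 higher and 1165 to 1664 lower.

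Counts that left 1.5 times the reported ones are given by setting, and the cause was not tested unless the setting itself removes libraries or counts. With library size only they were 5515 genes higher and 405 lower, 24 lysosome genes higher and 2 lower, 6 V-ATPase genes higher and 2 lower, 11 hydrolases higher, 5 membrane proteins higher and 0 lower, and 2 lumenal non-enzymes higher and 0 lower; 21 genes had all OPC-5per libraries above and 0 below. With upper-quartile scaling they were 1136 genes higher, 8 lysosome genes higher, 1 V-ATPase gene higher, 0 membrane proteins lower and 2 lumenal non-enzymes higher, with 2 genes above and 1 below. DESeq2 gave 1 higher V-ATPase gene, 0 lower membrane proteins and 2 higher lumenal non-enzymes, limma-voom 0 and 2 of the latter kinds, and testing without a filter 0 lower membrane proteins. In replicates 1 to 3 only, 53 genes were higher and 343 lower and every count of lysosome genes was 0. In replicates 4 to 6 only, 1 hydrolase was higher and 0 lumenal non-enzymes lower. Thinned to the smallest total, 166 genes were higher and 624 lower, with 2 lysosome genes, 1 hydrolase, 1 membrane protein and 0 lumenal non-enzymes higher, and 0 membrane proteins and 0 lumenal non-enzymes lower. With log2 total count added as covariate, 0 genes were higher and 43 lower (705 had an unadjusted p under 0.05), and every count of lysosome genes was 0. With the span trend removed, 1 V-ATPase gene (Atp6ap1) was higher, 1 hydrolase (Asah1) lower and 0 membrane proteins higher.

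Among genes called in the reported fit or in the alternative, signs turned in 2 settings. With library size only, Atp6v0d1 stood at 0.17, Atp6v0e2 at 0.028, Atp6v1c1 at 0.010, Cd63 at 0.12 and Npc2 at 0.084, uncalled, and Lamp1 (0.41), Mcoln1 (0.41), Ctsb (0.43), Ctsa (0.41), Hexa (0.28), Asah1 (0.32) and Glb1 (0.36) were called higher, all beside a median of all genes of 0.43. With the covariate, Atp6v0d1 stood at 0.050, Atp6v0e2 at 0.043, Atp6v1d at 0.078, Atp6v1g1 at 0.021, Cd63 at 0.18 and Npc1 at -0.12, all uncalled. Genes called in neither fit turned sign too: 6 with the covariate (among them Tpp1 at -0.26 and Atp6v0a1 at -0.23), 5 when thinned, 4 each with the span trend removed, without a filter and with upper-quartile scaling, 3 with library size only, 2 in each set of 3 replicates, and 1 each with DESeq2 and the replicate block. The replicate numbers did not pair the libraries (same-number correlations from -0.276 to 0.296, 2 of 6 over 0.1, 1 of 6 best with its own number); with the replicate number as a block 10 lysosome genes were lower, 8 of them V-ATPase genes, and 1 membrane protein higher, Scarb2 (adjusted p = 0.0588 by edgeR) losing its call. No member symbol was repeated in the table, so summing over repeated symbols was not run.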
